A study of Mus musculus with 16 samples.

Results

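The HoxA cluster was described here through the deposited chromatin immunoprecipitation (ChIP-seq) peak lists of mouse embryonic stem cells (ES) and neural precursor cells (NPC). Its members were 9 of the 22232 protein-coding genes of the annotation, namely Hoxa2, Hoxa3, Hoxa4, Hoxa5, Hoxa6, Hoxa7, Hoxa9, Hoxa10 and Hoxa11. The members were chosen by name. Their transcripts, with 2500 bp added on each side, span 88864 bp of chromosome 6 (mm9, chr6:52109850-52198713), all on the minus strand, so that Hoxa2 lies at the low end of the coordinates and Hoxa11 at the high end. Of 86279 peaks in all lists, 358 overlapped this span.

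The study asked whether loss of PCGF5, a subunit of a variant form of Polycomb repressive complex 1, changes Polycomb histone marks in ES and in the NPC made from them. Of its 16 libraries, 10 came with a peak list and the 6 input libraries were not used here. H2AK119ub1 and H3K27me3 were each profiled in ES of the 46C line, which carries a fluorescent reporter of neural fate, and in NPC, both as wild type and as PCGF5-deficient cells (called deficient cells from here on). ES were grown in serum with leukemia inhibitory factor and the 2i inhibitors on inactivated mouse embryo fibroblasts, and the share of feeder cells in the chromatin is not given. NPC were taken at day 6 of differentiation in suspension. The labels give the deficient cells as shPCGF5, a short hairpin RNA, while the study also describes a nuclease knockout, and peak lists cannot show whether the protein was lost. The 2 remaining lists were for PCGF5 itself, precipitated through a Flag tag knocked into its gene in otherwise wild type ES and in NPC derived from that line. Each group was 1 library, so no difference below has a replicate check and no test between conditions was possible. The files gave no read totals, and library depth is therefore unknown.

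Hox genes encode homeodomain transcription factors that give cells their position along the body axis, and they lie in clusters in which gene order follows the order of expression from head to tail. In ES the clusters are held silent by Polycomb. Polycomb repressive complex 2 places H3K27me3 (trimethylation of histone H3), and Polycomb repressive complex 1 places H2AK119ub1 (a single ubiquitin on histone H2A). Both marks are known for starting at CpG-rich DNA and for spreading over silent Hox clusters as broad domains.

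**Figure D1:**
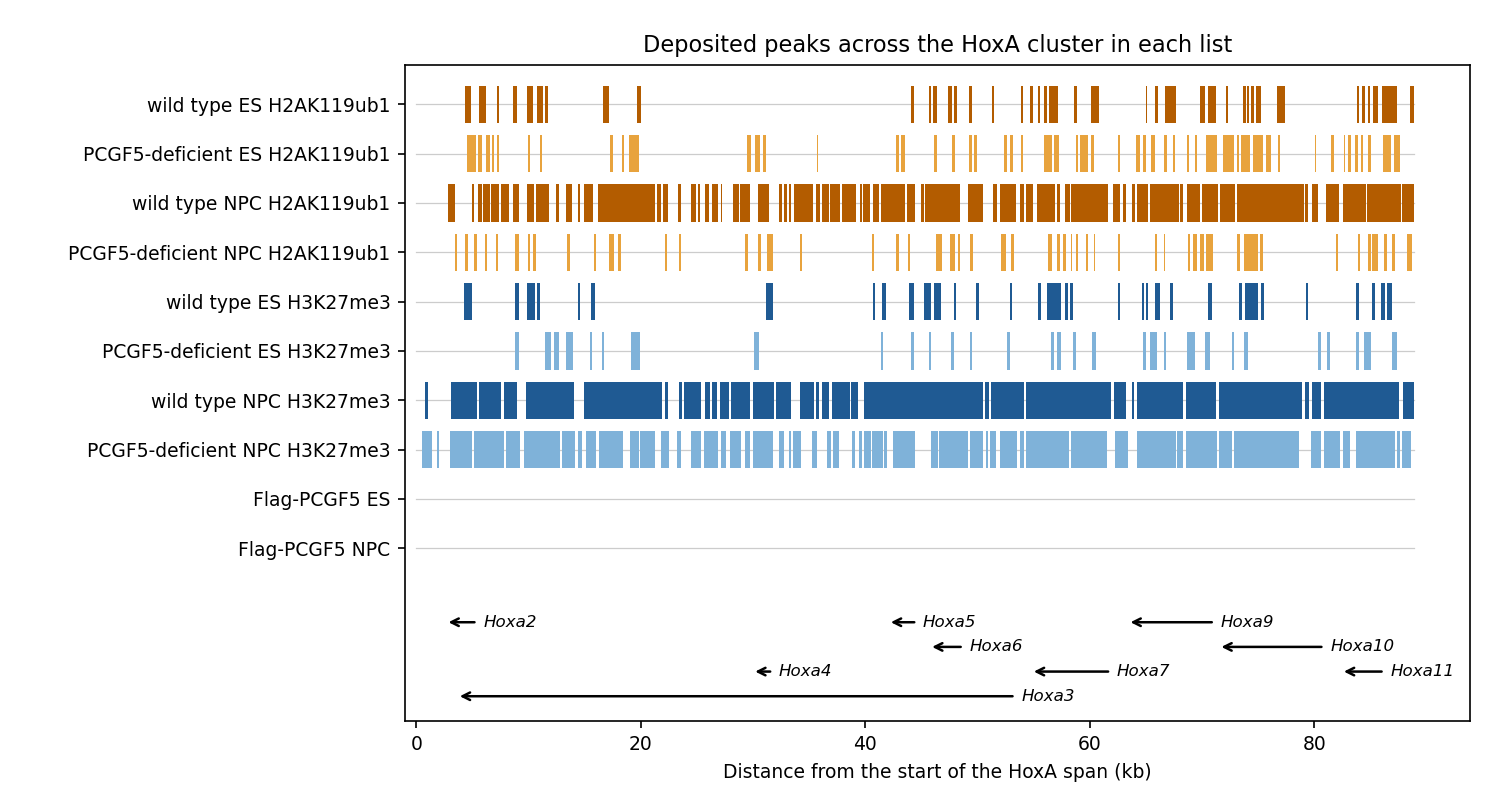
Peaks of the 10 lists (rows, boxes to scale) along the HoxA span, with distance from its low-coordinate end in kb on the x axis and the 9 genes as arrows in the direction of transcription. H3K27me3 covered 85.0% of the span for wild type NPC and 74.9% for PCGF5-deficient NPC, H2AK119ub1 covered 70.7% and 16.8%, and the Flag-PCGF5 rows are empty.

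The cluster was marked in islands in ES and over most of its length in wild type NPC. H2AK119ub1 peaks covered 15431 bp (17.4% of the span) in wild type ES and 18593 bp (20.9%) in deficient ES. They covered 62797 bp (70.7%) in wild type NPC, but 14935 bp (16.8%) in deficient NPC. H3K27me3 peaks covered 12812 bp (14.4%) in wild type ES, 11055 bp (12.4%) in deficient ES, then 75563 bp (85.0%) in wild type NPC, and 66595 bp (74.9%) for deficient NPC. The 8 values therefore fell into 2 ranges, with 5 lists at 12.4% to 20.9% of the span and 3 lists at 70.7% to 85.0%. The H2AK119ub1 list of deficient NPC was the only NPC histone list in the low range.

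The number of peaks told less than their width. H2AK119ub1 had 40, 52, 65 and 51 peaks in wild type ES, deficient ES, wild type NPC and deficient NPC, and H3K27me3 had 33, 30, 33 and 54 in the same order. The median width of the H2AK119ub1 peaks was 586 bp in wild type NPC, against 285.5, 269 and 239 bp in wild type ES, deficient ES and deficient NPC. For H3K27me3 it was 289 and 292 bp in wild type and deficient ES, and 1391 and 849 bp in wild type and deficient NPC. After peaks within 1000 bp were merged, the wild type NPC domains came to 3 regions for each mark, the longest of which ran over 61216 bp for H2AK119ub1 and 71251 bp for H3K27me3. Both of these regions ran past the Hoxa11 end of the span, to positions 52199312 and 52204534, and only peaks that overlapped the span were merged. The H3K27me3 domain of deficient NPC came to 4 regions, while the H2AK119ub1 peaks of these cells stayed in 21 regions.

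The HoxB span, of 89233 bp, held more than the HoxA span in these 3 NPC lists of the high range, with 65966 bp of H2AK119ub1 in wild type NPC, and 79721 and 71446 bp of H3K27me3 for wild type and deficient NPC. The HoxA span held 2.69% of all covered bp of the H2AK119ub1 list of wild type NPC and 1.33% of that of deficient NPC.

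PCGF5 itself was not called in the cluster. The Flag-PCGF5 lists held 653 peaks in ES and 12013 in NPC, and 0 of either lay in the span. Of 29865 other windows of the same length over the genome, 455 held a peak of the ES list and 6518 of the NPC list. A window without a peak was thus the usual case in both lists. In the NPC list, peaks covered 5.76% of the HoxB span and 2.82% of the HoxC span. They lay near 3 of 8 HoxB genes, 1 of 7 HoxC genes and 0 of 6 HoxD genes, where 14.1% of all genes had one. A list holds only what passed its caller, so weaker binding could not be detected.

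Sequences at 5 places are printed as examples of the marked and unmarked DNA of the cluster, not as its average. Only 497 bp, in 7 stretches, were covered in all 8 histone lists, and none of these stretches touched an exon of a member. The longest 3 are printed first, as the DNA with a peak of both marks in both genotypes and stages. The NPC stretch is the middle of the longest run outside exons that was covered in H2AK119ub1 of wild type NPC and in H3K27me3 of both NPC genotypes but in no ES list and not in H2AK119ub1 of deficient NPC. The unmarked stretch is the middle of the longest run outside exons that no histone list covered. All are from the plus strand of mm9, 5′ to 3′, with each CpG in capitals.

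common stretch 1, chr6:52166353-52166474, in a Hoxa7 intron: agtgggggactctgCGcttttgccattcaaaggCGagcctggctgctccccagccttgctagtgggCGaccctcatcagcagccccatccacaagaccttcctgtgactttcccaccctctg
common stretch 2, chr6:52180406-52180557, in a Hoxa9 intron: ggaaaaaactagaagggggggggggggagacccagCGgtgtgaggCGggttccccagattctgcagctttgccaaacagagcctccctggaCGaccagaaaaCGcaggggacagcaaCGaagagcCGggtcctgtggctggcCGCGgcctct
common stretch 3, chr6:52183635-52183722, in a Hoxa10 intron: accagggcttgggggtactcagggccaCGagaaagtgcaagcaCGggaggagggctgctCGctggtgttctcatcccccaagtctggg
NPC stretch, chr6:52187676-52187975, in a Hoxa10 intron: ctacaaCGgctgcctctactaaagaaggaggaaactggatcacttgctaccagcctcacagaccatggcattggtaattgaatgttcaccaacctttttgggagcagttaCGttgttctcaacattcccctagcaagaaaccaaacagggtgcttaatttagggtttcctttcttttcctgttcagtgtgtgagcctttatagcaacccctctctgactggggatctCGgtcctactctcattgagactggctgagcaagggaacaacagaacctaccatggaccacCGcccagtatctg
unmarked stretch, chr6:52132571-52132870, in an intron of a long Hoxa3 transcript: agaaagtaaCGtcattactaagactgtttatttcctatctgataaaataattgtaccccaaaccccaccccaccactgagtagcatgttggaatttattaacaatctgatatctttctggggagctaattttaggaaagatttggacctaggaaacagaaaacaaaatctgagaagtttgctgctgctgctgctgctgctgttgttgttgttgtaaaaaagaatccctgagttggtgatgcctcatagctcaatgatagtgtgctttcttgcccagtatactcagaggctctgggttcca

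The second common stretch lies 142 bp from a start site of Hoxa9 and holds 8 CpG in 152 bp, a density of 5.26 per 100 bp. The first and the third hold 2.46 and 3.41 per 100 bp. The NPC stretch holds 4 CpG in 300 bp (1.33 per 100 bp), and the unmarked stretch holds 1 in 300 bp. All DNA of each kind, exons included, differed less. It held 4.23 CpG per 100 bp where all 8 lists had a peak and 1.68 where none had. All DNA covered as the NPC stretch was held 2.18. Over all of its 88864 bp the span held 2.94 CpG per 100 bp, and chromosome 6 as a whole 0.797.

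CpG density inside peaks differed between the lists. In deficient NPC the DNA under H2AK119ub1 peaks held 5.37 CpG per 100 bp, against 2.45 in the rest of the span. In wild type NPC the 2 densities were 2.89 under H2AK119ub1 peaks and 3.04 outside them. The DNA under H3K27me3 peaks held 3.19 and 3.12 in wild type and deficient NPC, and the DNA outside held 1.50 and 2.39. The DNA left outside the H3K27me3 peaks of wild type NPC was the poorest in CpG of the 8 lists.

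**Figure D2:**
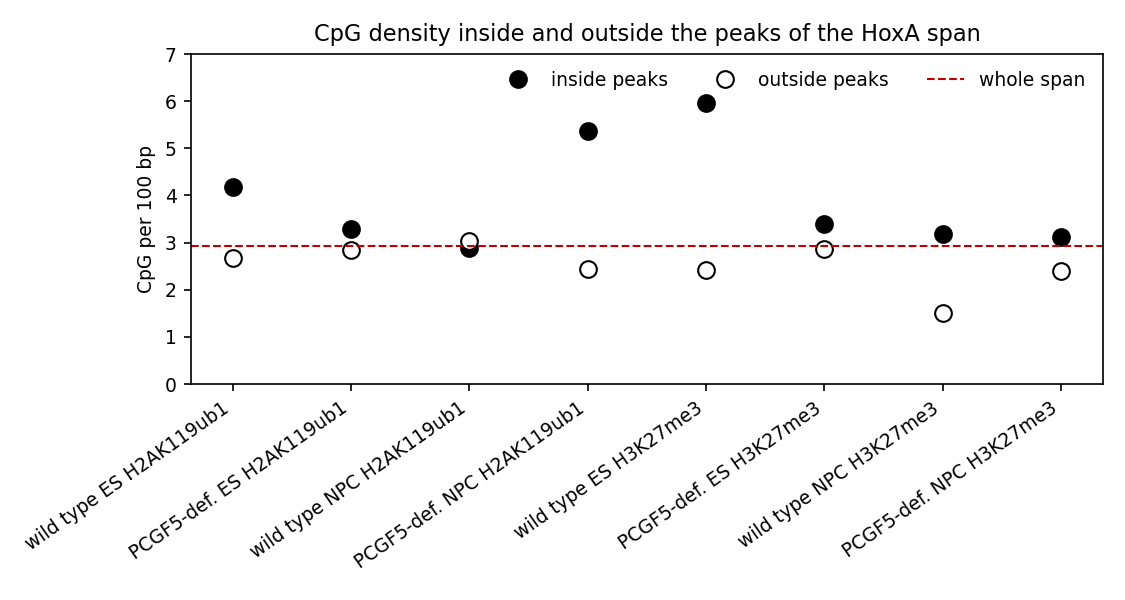
CpG per 100 bp (y axis) of the base pairs inside (filled) and outside (open) the peaks of each of the 8 histone lists (x axis) in the HoxA span, with the whole span as a dashed line at 2.94. Densities inside peaks were 5.37 for H2AK119ub1 of PCGF5-deficient NPC and 5.96 for H3K27me3 of wild type ES, and 2.89 to 4.18 in the other 6 lists.

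In ES the density under H2AK119ub1 peaks was 4.18 in wild type and 3.29 in deficient cells, and under H3K27me3 peaks 5.96 and 3.40. Over whole lists the CpG density under H2AK119ub1 peaks of NPC was 2.72 per 100 bp in wild type and 5.00 in deficient cells. Under H3K27me3 peaks of ES it was 5.16 and 4.33. The G and C content of whole lists moved in the same way for H2AK119ub1 in NPC, at 52.0% of all covered bp in wild type and 58.3% in deficient cells. These contrasts in base composition were thus not particular to the cluster. The part of library-wide base composition in the HoxA values was not tested. In deficient NPC, H2AK119ub1 peaks covered 39.9% of the 9184 bp of coding exon and 14.9% of the DNA outside exons, while in wild type NPC they covered 75.2% and 72.2%. For H3K27me3, coding exons were covered to 43.0% in wild type ES, 16.4% in deficient ES, 99.5% for wild type NPC and 92.3% for deficient NPC.

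The first comparison was between deficient and wild type NPC. H2AK119ub1 covered 4.20 times fewer bp of the cluster in the deficient cells (log2 ratio -2.07), and H3K27me3 covered slightly fewer (log2 ratio -0.18). Over all peaks of these lists the log2 ratio of covered bp was -1.05 for H2AK119ub1 and -0.24 for H3K27me3. The H2AK119ub1 ratio of the cluster was thus lower than that of its own lists, and that of H3K27me3 was close to it. With the higher-scoring 50% of each list the H2AK119ub1 ratio of the cluster was -2.72, and with peaks within 1000 bp merged it was -1.47. The other clusters stood nearby, with H2AK119ub1 ratios of -2.15 for HoxB, -2.89 for HoxC and -2.11 for HoxD, and H3K27me3 ratios of -0.16, -0.29 and -0.17.

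The H2AK119ub1 peaks of deficient NPC lay mostly where wild type NPC had the mark. Of the 51 peaks of deficient NPC, 47 overlapped a wild type NPC peak (92.2%, 95% Wilson interval 81.5% to 96.9%), against 42.0% of the 3845 peaks of the whole list. In the other direction 31 of 65 wild type peaks were overlapped (47.7%, interval 36% to 59.6%), against 26.0% of the whole list. When at least 50% of the wild type peak had to be overlapped, 9.23% were, and with the higher-scoring 50% of each list 28.3% were. The shared 13252 bp made up 88.7% of the deficient and 21.1% of the wild type coverage. Wild type peaks covered 70.7% of the span and deficient peaks 16.8%. Most peaks placed anywhere in the span would thus overlap a wild type peak, and the whole-list shares do not allow for this. Whether the overlap exceeded that from coverage alone was not tested. These intervals cover counting error only, and peaks of 1 library are not replicates.

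The fold enrichment over background that the caller gave each H2AK119ub1 peak in the span was of similar size in the 2 NPC lists. The median fold of these peaks was 5.17 in wild type NPC and 4.87 in deficient NPC, and the highest fold was 9.09 and 9.97. The whole lists had medians of 4.35 and 4.91, so the HoxA median lay above that of its list in wild type NPC and slightly below it in deficient NPC. Within its own list, the median HoxA peak stood at score percentile 77.6 in wild type NPC and at 39.8 in deficient NPC. In ES the median fold of the H2AK119ub1 peaks in the span was 5.04 in wild type and 4.19 in deficient cells, where the whole lists had 4.61 and 4.00. For H3K27me3 the median fold in the span was 4.35 and 5.07 in wild type and deficient ES, and 6.64 and 4.74 in wild type and deficient NPC, where the whole lists had medians of 4.30, 5.07, 4.69 and 4.11. Of these 4 H3K27me3 lists, the median HoxA peak exceeded the median of its own list by most in wild type NPC. Folds are relative to the background of each library, so they were not tested between lists.

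Among H2AK119ub1 peaks in the span, the one with the highest fold in deficient NPC was also the widest there. It spanned 1191 bp (chr6:52183609-52184799), overlapped a coding exon of Hoxa10 and ended 139 bp from a Hoxa10 start site. The widest H2AK119ub1 peak of wild type NPC in the span, of 5969 bp (chr6:52182941-52188909), overlapped the same exon and ran across that start site. That stretch of 1191 bp was also the longest covered in all 4 NPC histone lists, which together shared 12708 bp in 50 stretches.

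**Figure D3:**
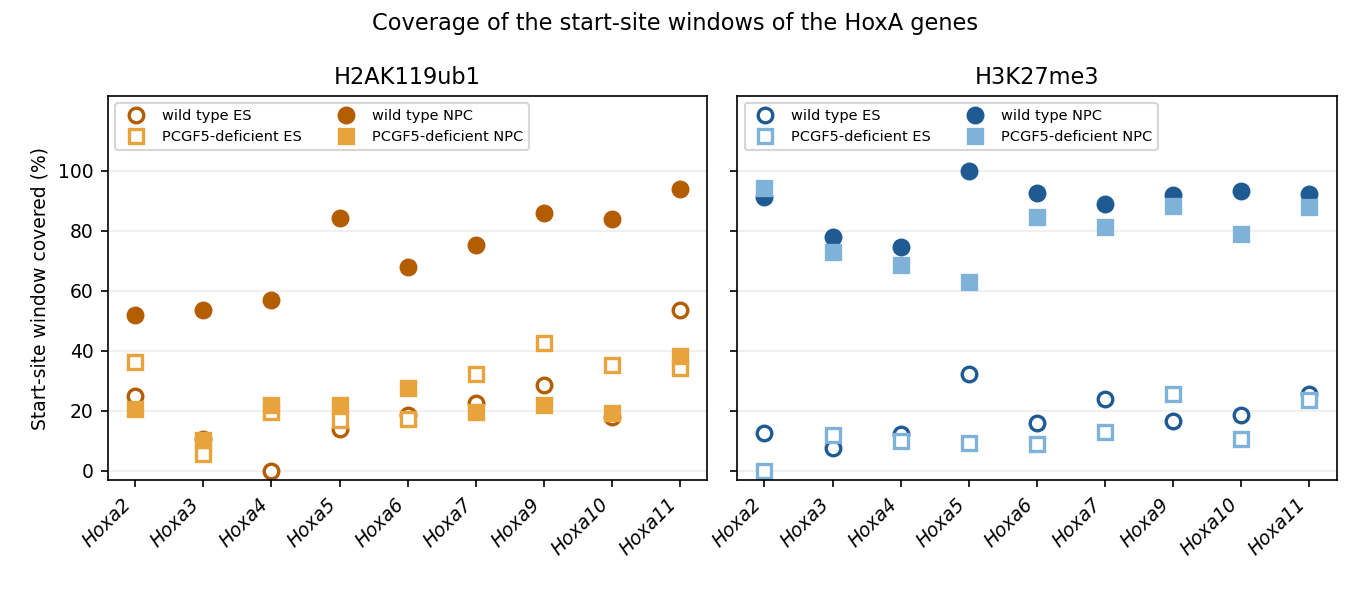
Share of the start-site window covered by peaks (y axis, percent) for the 9 HoxA genes in order from Hoxa2 to Hoxa11 (x axis), H2AK119ub1 on the left and H3K27me3 on the right, with open symbols for ES, filled for NPC, circles for wild type and squares for PCGF5-deficient cells, 1 library each. For H2AK119ub1 the wild type NPC values, 52.0% to 94.1%, lie above the PCGF5-deficient NPC values, 10.4% to 38.3%, and for H3K27me3 all NPC values lie above all ES values.

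Per gene, peaks were counted within 2500 bp of any annotated start site. H2AK119ub1 peaks lay near 8 of 9 members in wild type ES and near 9 of 9 in deficient ES, wild type NPC and deficient NPC, where 6.82%, 6.05%, 5.04% and 4.22% of all genes had one. H3K27me3 peaks lay near 9, 8, 9 and 9 members in the same order, where 13.5%, 13%, 15.9% and 15.6% of all genes had one. Flag-PCGF5 peaks lay near 0 of 9 members in ES and in NPC, where 0.819% and 14.1% of all genes had one. The absences among the histone lists were Hoxa4 for H2AK119ub1 in wild type ES and Hoxa2 for H3K27me3 in deficient ES. The other 7 genes had the same presence pattern in all 10 lists. Several windows overlap, those of Hoxa3 with Hoxa6 and Hoxa7, Hoxa5 with Hoxa6, Hoxa7 with Hoxa9 and Hoxa9 with Hoxa10, so these genes share some peaks.

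In NPC all 9 members had at least 2-fold fewer bp of H2AK119ub1 in deficient than in wild type cells. This direction held for 51.8% of the 1484 genes with such a peak in either list, and 28.8% went the other way. The median log2 ratio was -1.94 over the 9 members (range -2.37 to -1.30) and -0.61 over the 574 genes marked in both lists. For H3K27me3, 0 of 9 members passed 2-fold in either direction, where 33.4% of 4302 genes were lower and 22.9% higher, and the members' log2 ratios ran from -0.67 to 0.05.

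Among the 3′ genes, Hoxa2, which patterns the hindbrain and the second pharyngeal arch, had 2600 bp of H2AK119ub1 in wild type NPC and 1032 bp in deficient NPC. Its H3K27me3 covered 4560 and 4713 bp of the 5001 bp window in these cells. It was the single member whose H3K27me3 was not lower in the deficient NPC. In ES it had 1249 bp of H2AK119ub1 in wild type and 1813 bp in deficient cells, and 641 and 0 bp of H3K27me3.

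Hoxa3, needed for the thymus and parathyroid glands, has 5 start sites, transcripts that extend over 49981 bp and a window of 15275 bp in 3 pieces. Its H2AK119ub1 covered 8181 bp in wild type and 1582 bp in deficient NPC, the lowest ratio of the 9 (log2 -2.37). In ES it covered 1640 and 887 bp. H3K27me3 covered 1153 bp in wild type ES, 1847 bp in deficient ES, 11931 bp for wild type NPC and 11131 bp for deficient NPC. The peak with the highest fold of the whole cluster, 12.4 in H3K27me3 of wild type NPC (chr6:52124833-52131749), had Hoxa3 as its nearest member start, 2105 bp away.

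Hoxa4, a gene of the neck vertebrae, lay in the longest gap of H2AK119ub1 in wild type ES, which ran over 24089 bp (chr6:52129843-52153931). It had 0 bp there, 996 bp in deficient ES, 2876 bp for wild type NPC and 1108 bp for deficient NPC. Its window held the H2AK119ub1 peak with the highest fold of deficient ES in the span, at 5.74. H3K27me3 covered 617, 505, 3772 and 3476 bp in the same order of lists, so wild type ES had that mark alone near Hoxa4.

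Hoxa5, which acts in lung and skeletal development, had the largest H3K27me3 difference of the 9 in NPC. Its 5001 bp window was covered in full by a single peak of 10607 bp in wild type NPC and over 3154 bp in deficient NPC (log2 ratio -0.67). In ES the values were 1613 bp in wild type and 472 bp in deficient cells. H2AK119ub1 covered 703 and 854 bp in wild type and deficient ES, and 4212 and 1092 bp in the NPC.

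Among the genes toward the 5′ end, Hoxa6 and Hoxa7 belong to the paralogue groups of the trunk. Hoxa6 had 3407 bp of H2AK119ub1 in wild type NPC and 1377 bp in deficient NPC, against 939 and 872 bp in ES. Its H3K27me3 covered 799 and 457 bp in wild type and deficient ES and 4632 and 4232 bp in NPC. For this mark both NPC values of Hoxa6 lay above both ES values, as they did at every member. Hoxa7 had 7029 and 1830 bp of H2AK119ub1 in the NPC and 2134 and 3009 bp in the ES. Its H3K27me3 covered 8324 and 7609 bp in the NPC and 2255 and 1221 bp in the ES. Its window held the widest H3K27me3 peak of wild type ES in the span, 1295 bp (chr6:52165992-52167286), which overlapped a coding exon of the gene.

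Hoxa9 is best known from blood progenitors, and Hoxa10 from the lumbar skeleton and uterus. Hoxa9 had the most H2AK119ub1 of the 9 in each of the 4 H2AK119ub1 lists, namely 2844 bp in wild type ES, 4236 bp in deficient ES, 8554 bp for wild type NPC and 2173 bp for deficient NPC. Its window of 9939 bp is also among the longest, and as a share of the window Hoxa11 was higher in 3 of these 4 lists. Of the H2AK119ub1 peaks of wild type ES in the span, the one with the highest fold, 8.60 (chr6:52180351-52181109), lay across a Hoxa9 start site. Hoxa10 had 1802, 3536, 8406 and 1942 bp of H2AK119ub1 in the same order, the second lowest NPC ratio (log2 -2.11). H3K27me3 covered 1645, 2541, 9158 and 8794 bp at Hoxa9 and 1882, 1070, 9346 and 7899 bp at Hoxa10. At both genes, as at the other members, the NPC lists of this mark were well above the ES lists.

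Hoxa11, which patterns the forearm and the kidney, was the member with the largest covered share of H2AK119ub1 in wild type ES. It had 2690 bp there (53.8% of its window), 1709 bp in deficient ES, 4704 bp (94.1%) for wild type NPC and 1916 bp (38.3%) in deficient NPC. Its H3K27me3 covered 1277 and 1188 bp in wild type and deficient ES and 4617 and 4395 bp in NPC.

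The second comparison was between deficient and wild type ES. H2AK119ub1 coverage of the cluster was slightly higher in the deficient ES (log2 ratio 0.27, all peaks -0.25), and H3K27me3 coverage slightly lower (log2 ratio -0.21, all peaks -0.17). The H2AK119ub1 direction was lost with the higher-scoring 50% of each list, where the ratio was -0.0072. For HoxB, HoxC and HoxD the H2AK119ub1 ratios were 1.07, 1.62 and 0.86, so HoxA had the smallest of the 4.

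**Figure D4:**
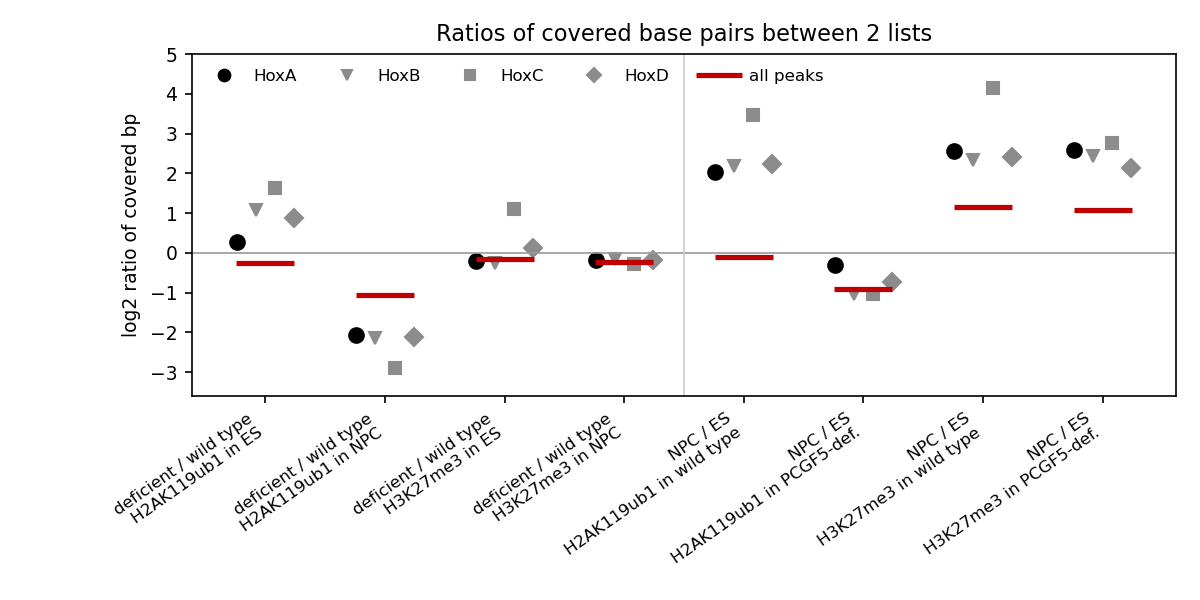
log2 ratio of covered bp between 2 lists (y axis) for the 4 Hox cluster spans (symbols) and for all peaks of the lists (red bars), PCGF5-deficient over wild type on the left and NPC over ES on the right, 1 library per list. For HoxA the H2AK119ub1 ratio between genotypes was 0.27 in ES and -2.07 in NPC, and the ratio of NPC to ES was 2.02 for wild type and -0.32 for PCGF5-deficient cells.

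The marks of the 2 ES genotypes covered similar lengths of the span but lay in partly different places. Of the 40 wild type H2AK119ub1 peaks, 28 were overlapped in deficient ES (70.0%, 54.6% to 81.9%), and the shared 7082 bp made up 45.9% of the wild type and 38.1% of the deficient coverage. Of the 33 wild type H3K27me3 peaks, 14 were overlapped (42.4%, 27.2% to 59.2%), with 2597 bp shared, or 20.3% and 23.5% of the 2 lists. Where 50% of a wild type peak had to be overlapped, the shares were 40% for H2AK119ub1 and 9.09% for H3K27me3. Over the whole lists 25.2% of H2AK119ub1 peaks and 35.1% of H3K27me3 peaks were overlapped. At the 2-fold limit 1 member, Hoxa4, was higher for H2AK119ub1 (33.6% of 2115 genes) and 0 were lower (43.2%). For H3K27me3, 2 members, Hoxa2 and Hoxa5, were lower (34.5% of 3773 genes) and 0 were higher (27.7%).

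The third comparison was between NPC and ES of 1 genotype. In wild type cells both marks covered more of the cluster in NPC, with log2 ratios of 2.02 for H2AK119ub1 and 2.56 for H3K27me3, where all peaks together gave -0.09 and 1.16. In deficient cells the ratio was -0.32 for H2AK119ub1 and 2.59 for H3K27me3, where all peaks gave -0.90 and 1.09. The H3K27me3 difference of the cluster was thus of like size in both genotypes, while H2AK119ub1 coverage was 4.07 times higher in NPC for wild type cells and slightly lower for deficient cells, a contrast that could not be tested. When lists were limited to the same number of top-scoring peaks the deficient H2AK119ub1 ratio was 0.25, which turned its direction.

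For H2AK119ub1, 8 of 9 members were at least 2-fold higher in wild type NPC than in ES, all but Hoxa11, where 35.4% of 2073 genes were, and 0 were lower (50.9%). In deficient cells 0 of 9 were 2-fold higher (26.5% of 1729 genes) and 0 lower (54.5%). For H3K27me3 all 9 were higher in wild type cells (60.2% of 4367 genes) and all 9 in deficient cells (57.2% of 4148 genes), and 0 were lower (21.1% and 19.5%). The members' median log2 ratio for H3K27me3 was 2.48 in wild type and 2.69 in deficient cells, against 1.24 and 1.02 over all genes marked in both lists. These ratios share lists with the genotype comparisons above, so they are not separate evidence.

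Nearly all ES peaks of the cluster overlapped an NPC peak of the same mark, except for H2AK119ub1 of deficient cells. In wild type cells 39 of 40 H2AK119ub1 peaks (97.5%) and 32 of 33 H3K27me3 peaks (97.0%) of ES overlapped an NPC peak of the same mark, against 16.4% and 43.0% of the whole ES lists. In deficient cells all 30 H3K27me3 peaks of ES did so, and 31 of 52 H2AK119ub1 peaks did (59.6%, 46.1% to 71.8%), against 50.0% and 18.9% of the whole lists. The share of H2AK119ub1 in deficient cells was 32.1% with the higher-scoring 50% of each list and 34.6% where 50% of the ES peak had to be overlapped. NPC peaks covered 70.7% of the span for H2AK119ub1 of wild type cells and 16.8% for deficient cells. For H3K27me3 they covered 85.0% and 74.9%. Apart from the list at 16.8%, most peaks placed anywhere in the span would overlap one, and the whole-list shares do not allow for this.

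H2AK119ub1 lay almost wholly within H3K27me3 in NPC of both genotypes, but less so in ES. H3K27me3 itself covered 85.0% and 74.9% of the span in wild type and deficient NPC, and 14.4% and 12.4% in ES. A high share in NPC would thus be met by H2AK119ub1 peaks placed anywhere in the span, and their placement was not tested. The share of H3K27me3 that also carried H2AK119ub1 was higher in NPC than in ES for wild type cells and lower for deficient cells. This share is limited by how many bp H2AK119ub1 covered. In NPC that was 62797 bp in wild type and 14935 bp in deficient cells, where H3K27me3 covered 75563 and 66595 bp. The NPC shares lay close to the limit set by these lengths, so they are not separate evidence. In wild type NPC 59769 bp carried both, 95.2% of the H2AK119ub1 and 79.1% of the H3K27me3 coverage of the cluster. In deficient NPC 14537 bp did, 97.3% of the H2AK119ub1 and 21.8% of the H3K27me3 coverage. In ES the shared 6190 bp of wild type cells made up 40.1% and 48.3% of the 2 marks, and the shared 4593 bp of deficient cells made up 24.7% and 41.5%. All 51 H2AK119ub1 peaks of deficient NPC overlapped H3K27me3, against 74.5% of the whole list, and 63 of 65 did for wild type NPC, against 81.3%. In ES 22 of 40 wild type and 18 of 52 deficient H2AK119ub1 peaks did, against 38.8% and 27.6%. The deficient ES share, 34.6%, was 17.9% with the higher-scoring 50% of each list and 21.2% where 50% of the peak had to be overlapped.

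The marks were denser toward the 5′ end in all 8 histone lists. The part from Hoxa6 to Hoxa11 was covered by H2AK119ub1 to 25.9%, 30.3%, 81.3% and 22.3% in wild type ES, deficient ES, wild type NPC and deficient NPC, and the part from Hoxa2 to Hoxa5 to 8.96%, 11.7%, 60.2% and 11.4%. For H3K27me3 the 5′ part was covered to 19.8%, 15.5%, 92.9% and 82.0%, and the 3′ part to 9.11%, 9.44%, 77.3% and 68.0%. Outside the cluster the 2 sides differed. Between 50 and 150 kb beyond Hoxa2, coverage was 0 to 0.316% in the 8 lists. Between 50 and 150 kb beyond Hoxa11 it was 13.6% for H2AK119ub1 in wild type NPC and 2.15% in deficient NPC, and 17.8% and 16.1% for H3K27me3, so the same contrast between marks was seen there.

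**Figure D5:**
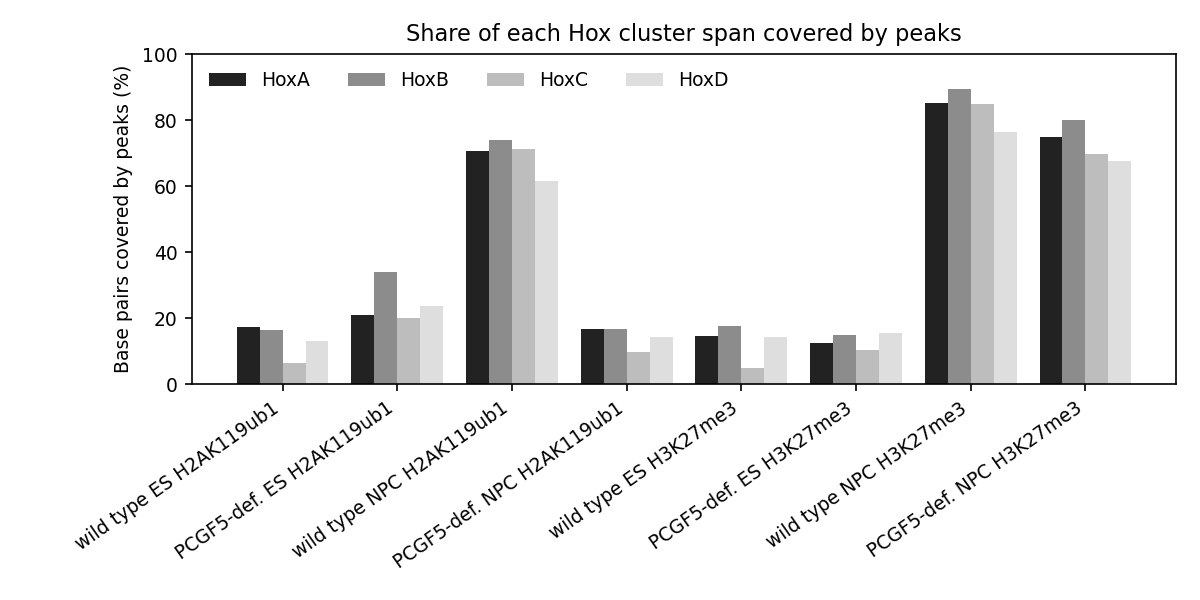
Share of base pairs covered by peaks (y axis, percent, from 0) in the spans of the 4 Hox clusters, restricted to paralogue groups 2 to 11, in each of the 8 histone lists (x axis). HoxA, HoxB, HoxC and HoxD had 70.7%, 73.9%, 71.3% and 61.6% under H2AK119ub1 in wild type NPC, against 16.8%, 16.6%, 9.62% and 14.3% for PCGF5-deficient NPC.

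Genes that act with or above Hox genes were counted in the same way. Of 9 cofactors of Hox proteins (the Pbx, Meis and Pknox families), 2, 3, 0 and 2 had an H2AK119ub1 peak near a start site in wild type ES, deficient ES, wild type NPC and deficient NPC, and 2, 2, 1 and 4 had an H3K27me3 peak. Meis1 had 310 bp of H3K27me3 in wild type NPC and 4002 bp in deficient NPC, and Meis2 had 0 and 2322 bp. Of 8 regulators upstream of Hox genes (the Cdx factors, the retinoic acid receptors and the enzymes Cyp26a1 and Aldh1a2), 5, 2, 4 and 3 had an H2AK119ub1 peak and 3, 4, 7 and 6 an H3K27me3 peak. Over all genes, 6.82%, 6.05%, 5.04% and 4.22% had an H2AK119ub1 peak and 13.5%, 13%, 15.9% and 15.6% an H3K27me3 peak in these lists. Unlike Meis1 and Meis2, the regulators with the most H3K27me3 had similar values in the NPC genotypes. Cdx2 had 4509 bp in wild type NPC and 4220 bp in deficient NPC, and Cyp26a1 had 3769 and 3566 bp. Flag-PCGF5 peaks in NPC lay near 4 of the 9 cofactors and 4 of the 8 regulators, where 14.1% of all genes had one. With so few genes in each group these counts were not tested against those shares. The labelled cell types cannot be checked from marks as they could from RNA. Of 4 pluripotency markers, Esrrb had a peak near a start site in all histone lists but H2AK119ub1 of deficient ES, and Zfp42 had one in H3K27me3 of wild type NPC alone. Of the 3 neural markers found in the annotation, Pax6 had a peak in all 8 histone lists, Nes in all but H2AK119ub1 of wild type NPC and H3K27me3 of wild type ES, and Sox2 in none of the 8. These marker genes were named after their values were seen.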

How the data were processed

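The deposited lists hold 1 peak per line, for which the authors' caller gave a score, a fold (the ratio to local background), the −log10 p-value and the −log10 q-value. Before deposit, the authors used Trimmomatic for trimming, Bowtie2 for alignment to mm9, Picard against duplicates and MACS2 2.1.0 for calling, library by library without pooling. Histone chromatin was digested with micrococcal nuclease, and Flag chromatin was fixed and sonicated. The spike-in did not enter the lists. Peaks are called per library, so covered bp depend on depth and background too, and peak widths are not comparable between the 2 preparations.

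Groups came from the labels. Here, covered bp are the union of peaks inside the HoxA span or within 2500 bp of start sites of protein-coding transcripts (GENCODE M1), by any base. A 2-fold call compares covered bp of 2 lists, over genes with a peak in either. Peaks were ranked by the score, with ties broken by a seeded draw. Shares carry 95% Wilson intervals. Sequence came from NCBIM37, the assembly behind mm9. Python 3.11.15, numpy 2.4.6, pandas 2.3.3 and matplotlib 3.10.9 were used. Coverage and overlap were tested on simulated data (0 of 50 and 0 of 50 runs differed from the planted values), and 0 of 68 counts differed from bedtools 2.31.1. No peak of the 86279 passed the end of its chromosome. Named were all 9 members and the widest and highest-fold peak of a list within the span. Up to 4 cofactors and regulators were also named, those with the most bp of a histone mark in their own group. The members and lists were chosen with earlier results of these data known. Alternatives were a stricter score or q-value, lists of equal length, merged peaks, peak centres, a window of 1000 bp and 50% overlap.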

Additional observations from a re-analysis of the deposited data

Results flagged for a closer look

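The ratio of PCGF5-deficient to wild type coverage of the HoxA span by H2AK119ub1 went in opposite directions at the 2 stages, with a log2 ratio of 0.27 in ES and -2.07 in NPC. With the same 4 lists read the other way, the log2 ratio of NPC to ES was 2.02 for wild type cells and -0.32 for PCGF5-deficient cells. With 1 library per group the difference was not tested. Both small ratios changed sign under an alternative, and both large ones kept theirs under all 5 that were run.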

How the results depend on the processing

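All 60 counts of HoxA genes with a peak under an alternative stayed within 1.5 times the reported count. Of 40 log2 ratios under alternatives, 34 stayed close and 2 changed direction. Requiring the peak centre inside the span or window, a window of 1000 bp and a q-value of at most 0.05 moved none of these values beyond 1.5 times or beyond the interval of the share.

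With the higher-scoring 50% of each list, the genotype ratio of H2AK119ub1 in ES was -0.0072 and that in NPC -2.72, and the H3K27me3 ratio of NPC to ES was 3.15 in wild type and 3.26 in deficient cells. The span then held 28 H2AK119ub1 peaks over 12112 bp in deficient ES and 23 over 8589 bp in deficient NPC, and 16 H3K27me3 peaks over 8362 bp in wild type ES and 16 over 6190 bp in deficient ES. Overlapped shares were 28.3% of wild type NPC H2AK119ub1 peaks by the deficient list, 75.0% of wild type NPC H3K27me3 peaks by the deficient list, 32.1% of deficient ES H2AK119ub1 peaks by NPC and 43.5% in the other direction, and, between marks in ES, 37.0% of wild type H2AK119ub1 peaks, 17.9% of deficient H2AK119ub1 peaks and 31.2% of deficient H3K27me3 peaks.

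With lists limited to equal length by score, the H2AK119ub1 ratio of NPC to ES in deficient cells was 0.25. The H2AK119ub1 peaks were 25 in wild type and 30 in deficient ES, 100% of the wild type ES peaks were overlapped in NPC, and 39.2% of deficient NPC peaks in ES. In ES, H2AK119ub1 overlapped 34.5% of wild type and 33.3% of deficient H3K27me3 peaks.

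With peaks within 1000 bp merged, the genotype ratio of H2AK119ub1 in NPC was -1.47. Regions numbered 19, 18, 3 and 21 for H2AK119ub1 and 17, 20, 3 and 4 for H3K27me3. They covered 23754, 32420 and 30236 bp for H2AK119ub1 of wild type ES, deficient ES and deficient NPC, and 20603 and 16774 bp for H3K27me3 of wild type and deficient ES.

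Where 50% of the counted peak had to be overlapped, the H2AK119ub1 shares were 40% of wild type and 36.5% of deficient ES peaks by the other genotype, 9.23% of wild type NPC peaks by the deficient list and 12.3% by wild type ES, and 34.6% and 43.1% between deficient ES and NPC. The H3K27me3 shares were 9.09% and 23.3% between the ES genotypes, 75.8% of wild type NPC peaks by the deficient list, 0% of wild type and 3.70% of deficient NPC peaks by ES. Between marks, 21.2% of H2AK119ub1 peaks in deficient ES and 3.70% of H3K27me3 peaks in deficient NPC were overlapped. An NPC peak longer than the ES islands cannot easily pass this limit, and the cause of the other changes was not tested.

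No paired analysis was possible because each group held 1 library. For the same reason no library was left out, and the unknown depth of the libraries limits every comparison of covered bp.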
